A study of Mus musculus with 9 samples.

Results

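Negative regulators of proximal T-cell receptor (TCR) signalling were examined as a set of 10 genes. They were Cd5, Cd6, Ptpn6, Ptpn22, Ubash3a, Ubash3b, Cbl, Cblb, Csk and Pag1, chosen by name as inhibitory receptors, tyrosine phosphatases, ubiquitin ligases and parts of the Csk pathway. All 10 were found among the 24060 genes listed. All 10 also passed the filter on low values (over 1 TPM in at least 1 sample), and the lowest value of any of them in any sample was 4.64 TPM.

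The data are RNA-seq of unstimulated CD8 T cells from 3 strains of transnuclear mice, Rop7-I, Rop7-II and Rop7-III, with 3 biological replicates per strain and 9 samples in all. Transnuclear mice are cloned from the nucleus of a single T cell and pass on its rearranged TCR genes, so that each strain stands for 1 T-cell clone. The clones bind the same epitope of the Toxoplasma protein Rop7 on H-2Ld, and the study describes their receptors as unlike in affinity for that peptide and in reactivity to self. Levels are in TPM, a share of all transcripts, which are corrected for gene length, so that levels of different genes can be compared, and which do not keep the sequencing depth. Rop7-I, Rop7-II and Rop7-III differ by strain, that is by the α and β chains of the clonal receptor, for which the mice were homozygous in the study's description of these profiles. All were bred onto a BALB/c background by repeated backcrossing. No group received antigen: in each, splenocytes were kept overnight with recombinant mouse IL-2 at 10 ng per ml before sorting of T cells positive for CD3, CD8 and the Rop7 tetramer, at a purity of 90 to 95%. Age and sex of the mice are not given in the sources used here. As each clone is a separate mouse line, the receptor and any other difference between the lines cannot be told apart.

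When a TCR binds its ligand, the kinase Lck phosphorylates the CD3 chains and Zap70, and Zap70 in turn phosphorylates the adaptor Lat. The genes examined here act against these first steps: Csk and the phosphatases shut off the kinases or remove phosphate, the Cbl ligases tag active signalling proteins with ubiquitin, and CD5 and CD6 recruit such enzymes to the receptor. In thymocytes and naive T cells, the surface level of CD5 is known to follow the strength of the TCR signals that a cell has received from self-ligands.

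The defining genes of CD8 T cells were abundant in every sample, with Cd8b1, the most abundant of 7 such markers, between 2052 and 2386 TPM. Rop7-II replicate 1 stood apart in the markers of other cells. In that sample all 10 B-cell markers and all 8 listed myeloid markers were at their highest. The summed level of the B-cell markers was 803 TPM there and between 59.9 and 363 TPM in the other 8 samples, and its most abundant gene, Cd79b, stood at 245 TPM against 22.6 to 116 TPM. The summed level of the myeloid markers was 577 TPM there and between 34.7 and 196 TPM elsewhere, with Lyz2 as the most abundant gene at 485 TPM. Summed markers of CD4 T cells reached 19.1 TPM in the same sample against 2.39 to 5.37 TPM, with 1 of 4 genes at 0 in Rop7-I replicate 1. Foxp3 had the highest mean of the 4 and stood at 5.00 TPM in Rop7-II replicate 1. Cd40lg was the 1 of the 4 that was not highest there: it stood at 2.90 to 3.70 TPM in Rop7-III and at 0.70 TPM or less in all other samples. Markers of NK cells summed to between 0.05 and 1.51 TPM, with 1 to 3 of 4 genes at 0 in each sample and Ncr1 as the gene with the highest mean. Erythroid markers summed to between 15.2 and 1408 TPM, highest in Rop7-I replicate 2, with Hba-a1 as the gene with the highest mean and 1 to 3 of 6 genes at 0. Called differences of the regulators from Rop7-II are therefore given with and without its replicate 1, which among other genes was done only for Nr4a1.

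**Figure D1:**
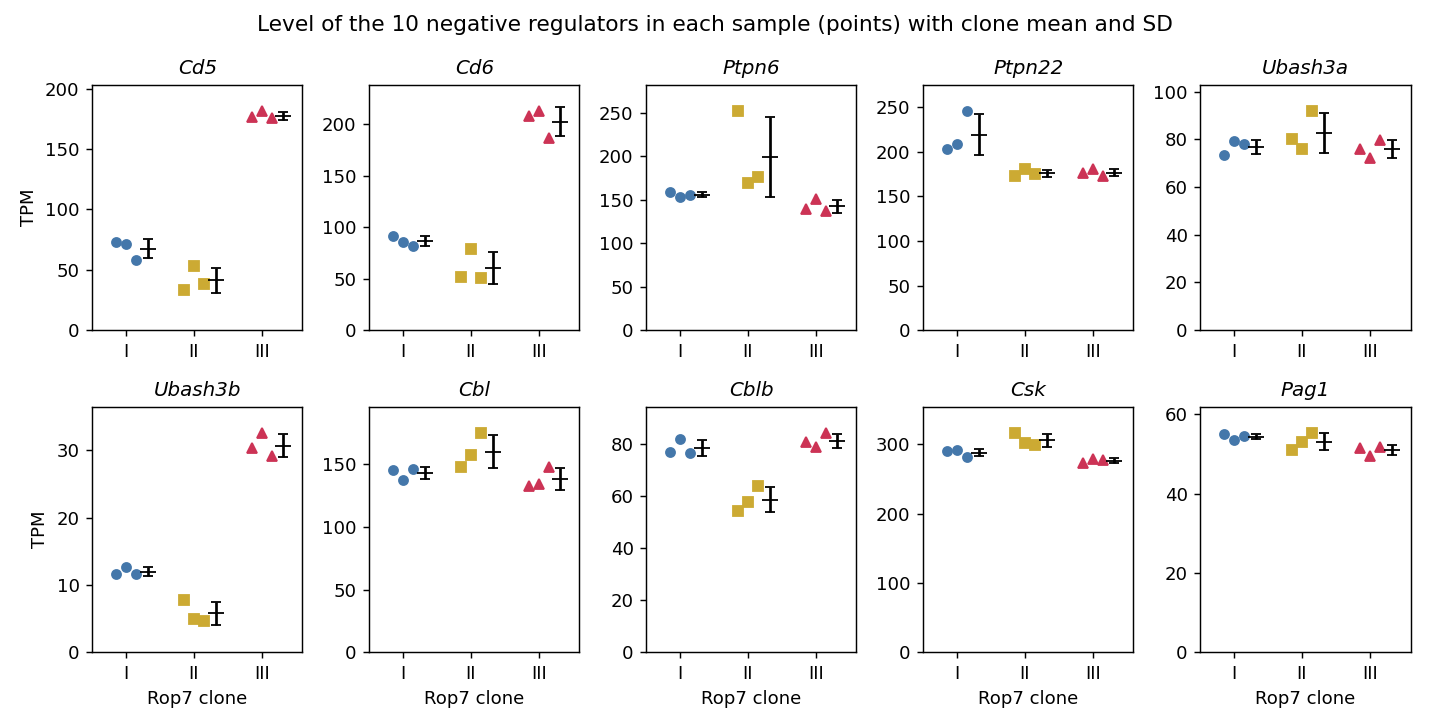
Level in TPM (vertical axes, each from 0) of the 10 regulators in the 3 samples of each clone (horizontal axes; circles Rop7-I, squares Rop7-II, triangles Rop7-III), with the mean and SD of the clone in black. Cd5, Cd6 and Ubash3b stand highest in Rop7-III and lowest in Rop7-II without overlap, while Ubash3a and Pag1 lie close together in all 3 clones.

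Cd5 and Cd6 encode related scavenger-type receptors whose cytoplasmic tails are phosphorylated after TCR engagement. Cd5 (chr19:10718107-10739026 on GRCm38, minus strand) stood at 176, 181 and 175 TPM in the 3 Rop7-III samples. It stood at 72.9, 71.5 and 58.5 TPM in Rop7-I and at 33.4, 52.9 and 37.9 TPM in Rop7-II T cells. Every Rop7-III sample was thus above every Rop7-I sample, and every Rop7-I sample above every Rop7-II sample, with the closest approach between Rop7-I replicate 3 and Rop7-II replicate 2. In bulk samples such as these, fewer cells of a type and less RNA per cell cannot be told apart. The log2 fold change of Cd5 was 2.10 between Rop7-III and Rop7-II (95% interval 1.77 to 2.43, adjusted p = 2.19e-05) and 1.39 between Rop7-III and Rop7-I (1.06 to 1.71, adjusted p = 4.73e-04). Fold changes are given throughout on the log2(TPM + 1) scale, on which 1 is 2-fold, and the limit for a call was an adjusted p of 0.01. Between Rop7-I and Rop7-II the log2 fold change of Cd5 was 0.71 (0.39 to 1.04), and its adjusted p of 0.01002 lay just above the limit. It was called under 4 of 18 alternatives (adjusted p from 5.47e-04 to 0.0683 over all of them): with 0.1 or 0.5 TPM added, with at least 1 TPM required in every sample, and without Rop7-II replicate 2, where it was 0.90. Without Rop7-II replicate 1 the difference of Rop7-III from Rop7-II was 1.96 (adjusted p = 2.64e-05), and that of Rop7-I from Rop7-II was 0.58 (adjusted p = 0.0173).

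Cd6 (chr19:10789339-10830062, minus strand), the receptor for ALCAM, stood at 208, 212 and 186 TPM in Rop7-III T cells. In Rop7-I it stood at 91.3, 85.2 and 81.8 TPM, and in Rop7-II at 51.6, 78.3 and 50.5 TPM. The clones separated in the same order as for Cd5, and Rop7-II replicate 2 was again the highest of its clone, close to the lowest Rop7-I sample. The log2 fold change was 1.76 between Rop7-III and Rop7-II (adjusted p = 5.19e-05) and 1.22 between Rop7-III and Rop7-I (adjusted p = 9.13e-04). For Rop7-I over Rop7-II it was 0.54 and not called (adjusted p = 0.0313), but it was 0.74 and called without Rop7-II replicate 2 (adjusted p = 2.25e-04, with a range up to 0.149 over all alternatives). Leaving out Rop7-II replicate 1 gave a difference of Rop7-III from Rop7-II of 1.67 (adjusted p = 1.25e-04).

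The level of Cd5 was below that of Cd6 in all 9 samples, and the log2 ratio of Cd5 to Cd6 was -0.18 ± 0.08 (SD, n = 3) in Rop7-III T cells, -0.35 ± 0.12 in Rop7-I samples and -0.54 ± 0.11 in Rop7-II. The ratio in Rop7-III samples lay above that in all samples of the other clones. It differed by 0.35 from Rop7-II and by 0.17 from Rop7-I, each with p = 0.1 in a two-sided exact permutation test of 3 samples against 3, the smallest p that such a test allows (0.15 adjusted over the 12 tests of 4 ratios in 3 pairs). Between Rop7-I and Rop7-II the ratios overlapped, with a difference of 0.18 (exact p = 0.2, adjusted 0.24). Leaving out Rop7-II replicate 1 changed the difference between Rop7-III and Rop7-II to 0.31.

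Cd5 and Cd6 are neighbours, with 50312 bases between the end of Cd5 and the start of Cd6. The gene A430093F15Rik lies in this gap (chr19:10740947-10786043) and overlaps neither. Its mean level was 6.65 TPM in Rop7-III T cells, 0.730 TPM in Rop7-I samples and 0.430 TPM in those of Rop7-II. Its log2 fold change was 2.42 between Rop7-III and Rop7-II (adjusted p = 4.06e-05) and 2.13 between Rop7-III and Rop7-I (adjusted p = 1.80e-04). Of the 31 tested genes whose start lies within 1 Mb of that of Cd5, 7 were called between Rop7-III and Rop7-II, and of these A430093F15Rik and Cd6 differed at least 2-fold. In this pair 6.39% of all tested genes were higher and 5.89% lower. Between Rop7-III and Rop7-I, 7 of the 31 were called as well, where 2.58% of all tested genes were higher and 2.28% lower. Besides A430093F15Rik and Cd6, the gene AW112010 passed 2-fold there, in the other direction (50.9 against 132 TPM, log2 fold change -1.36, adjusted p = 2.25e-04).

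**Figure D2:**
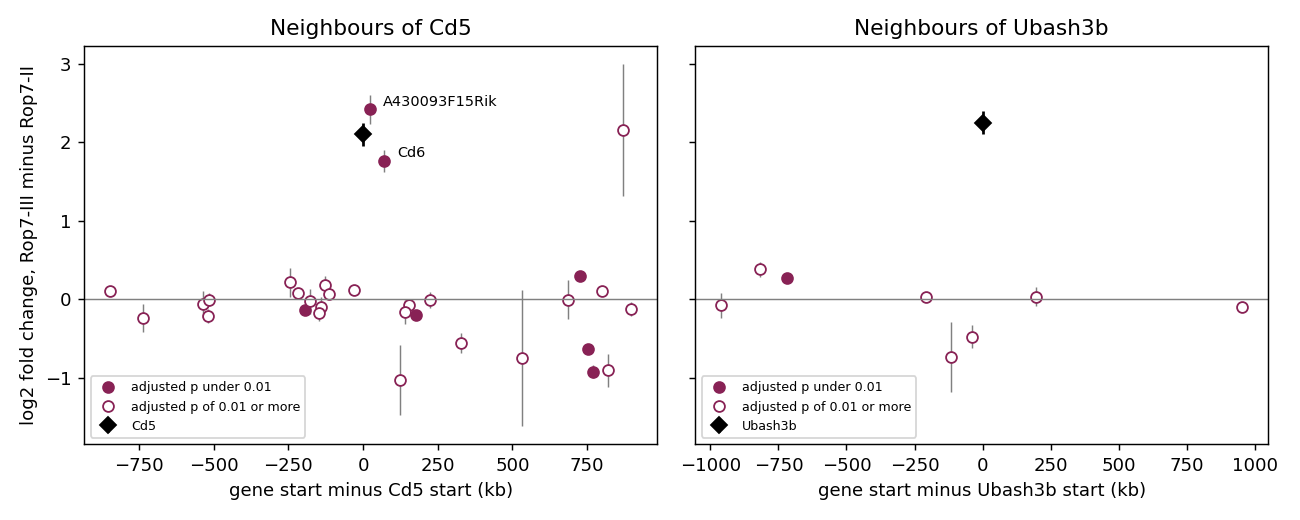
Log2 fold change (vertical axis, Rop7-III minus Rop7-II) of tested genes against the distance of their start from that of Cd5 (left) or Ubash3b (right) in kb, with standard errors, filled where the adjusted p was under 0.01. Next to Cd5 (diamond), Cd6 and A430093F15Rik have differences of 1.76 and 2.42, while none of the 8 neighbours of Ubash3b reaches a 2-fold difference in either direction.

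The promoter of Cd5 is shown because Cd5 is the receptor gene with the widest separation of the clones. RefSeq promoters, from 250 bases before to 50 after the start, matched 8 of the 10 regulators, all but Cd6 and Pag1, with 11 promoters in all on GRCm38.p6. They were searched on both strands for GGAAG (the ETS core), CANNTG (the E-box), GCGTGGGCG or GCGGGGGCG (EGR), TGTGGT (RUNX), TGAGTCA (AP-1) and GGGCGG (SP1), and matches may overlap each other. Capitals mark GGAAG or its reverse complement CTTCC in the sequence of chr19:10738925-10739224, minus strand, 5′ to 3′.

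Cd5: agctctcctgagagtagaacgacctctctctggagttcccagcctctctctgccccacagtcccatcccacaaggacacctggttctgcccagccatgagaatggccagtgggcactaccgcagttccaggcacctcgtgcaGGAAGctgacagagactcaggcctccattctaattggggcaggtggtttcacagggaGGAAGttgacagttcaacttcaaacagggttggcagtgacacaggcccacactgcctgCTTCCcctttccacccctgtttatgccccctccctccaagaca

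The Cd5 promoter holds 3 ETS cores, which begin 108 and 51 bases before and 7 bases after the start, and 2 E-boxes. All 11 promoters of the regulators had an ETS core, as did 71.4% of the 32851 promoters in the table. An E-box was found in 8 of the 11 promoters, against 72.3% of all promoters. SP1 letters were found in 4 of the 11, of Ptpn6, Cbl, Cblb and Csk (35.7% of all promoters), RUNX letters in 1, of Ptpn22 (16.8%), and EGR letters in 1, of Cbl (3.47%). AP-1 letters, which 5.20% of all promoters hold, were in none of the 11. A match is a string of letters and not a measured binding site.

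Among the tyrosine phosphatases, Ubash3b and Ubash3a (Sts-1 and Sts-2) are paralogues that act on Zap70 and related kinases. Ubash3b (chr9:41010760-41161692, minus strand) stood at 30.3, 32.5 and 29.2 TPM in Rop7-III T cells. It stood at 11.6, 12.7 and 11.6 TPM in Rop7-I and at 7.72, 4.98 and 4.64 TPM in Rop7-II T cells. The 3 clones did not overlap, and within Rop7-II replicate 1 was the highest sample, unlike for Cd5 and Cd6. The log2 fold change was 2.25 between Rop7-III and Rop7-II (95% interval 1.93 to 2.57, adjusted p = 1.58e-05), 1.29 between Rop7-III and Rop7-I (0.96 to 1.61, adjusted p = 6.83e-04) and 0.96 between Rop7-I and Rop7-II (0.64 to 1.29, adjusted p = 0.00231). Without Rop7-II replicate 1 the first was 2.45 (adjusted p = 2.34e-07) and the last 1.16 (adjusted p = 2.90e-05). The call between Rop7-I and Rop7-II was lost without Rop7-I replicate 2 (adjusted p = 0.0130), in a fit of only those clones (0.0179) and with no filter on low values (0.0234), within a range of 2.90e-05 to 0.0234 over all alternatives.

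Ubash3a (chr17:31207868-31259681, plus strand) stood at 75.9, 72.1 and 79.9 TPM in Rop7-III T cells. In Rop7-I it stood at 73.3, 79.1 and 78.0 TPM, and in Rop7-II at 80.3, 75.8 and 91.8 TPM. Samples of all 3 clones overlapped. Its log2 fold changes were -0.12 between Rop7-III and Rop7-II (95% interval -0.27 to 0.04), -0.02 between Rop7-III and Rop7-I (-0.17 to 0.14) and -0.10 between Rop7-I and Rop7-II (-0.26 to 0.05), and none was called (adjusted p from 0.250 to 0.912). The intervals thus leave no room for a difference as large as that of Ubash3b in any pair. Ubash3a shares 4663 bases with Rsph1 on the other strand, which stood at 0.43 to 1.95 TPM, and reads of the shared stretch cannot be told apart because the libraries did not keep the strand. In all, 7 of the 10 regulators share bases with an annotated gene on the other strand, and of these genes only Rsph1 is in the table.

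Ubash3b made up 28.8 ± 2.18% (SD, n = 3) of the summed level of this pair of paralogues in Rop7-III T cells, 13.5 ± 0.470% in Rop7-I samples and 6.58 ± 2.01% in Rop7-II. Ubash3a was thus the more abundant paralogue in every sample. The log2 ratio of Ubash3b to Ubash3a was -1.31 ± 0.15 (SD, n = 3) in Rop7-III T cells, -2.68 ± 0.06 in Rop7-I samples and -3.87 ± 0.47 in Rop7-II, with no overlap. The differences of 2.56, 1.37 and 1.19 in the 3 pairs each had p = 0.1 in the exact permutation test, the smallest possible (adjusted 0.15). With Rop7-II replicate 1 left out, the difference between Rop7-III and Rop7-II was 2.81.

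**Figure D3:**
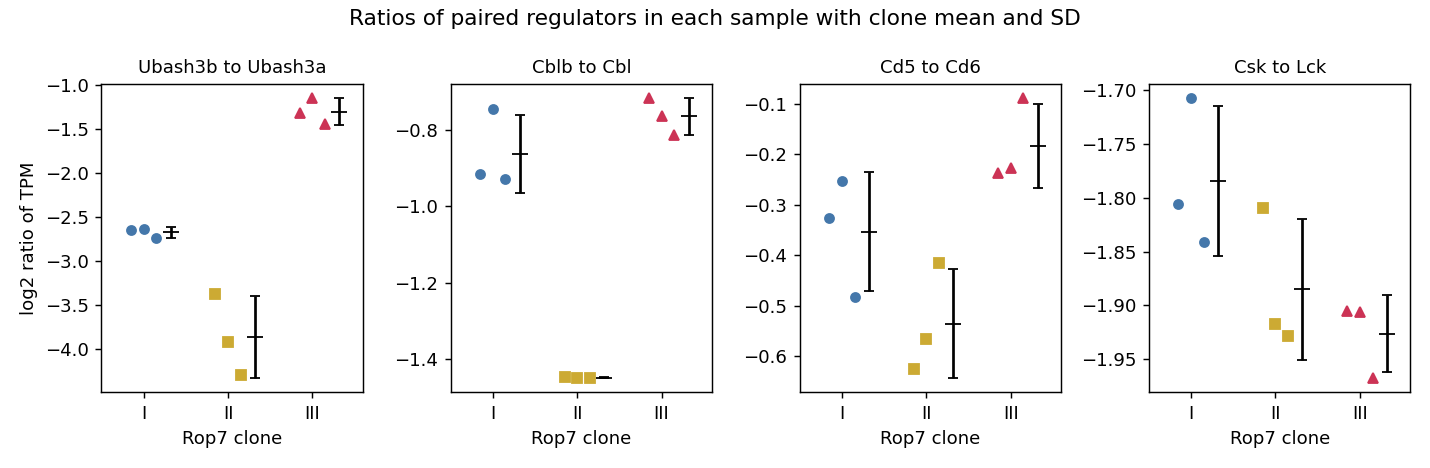
Log2 ratio of TPM (vertical axes, each with its own range) of Ubash3b to Ubash3a, Cblb to Cbl, Cd5 to Cd6 and Csk to Lck in each sample by clone, with the mean and SD of the clone in black. Ubash3b to Ubash3a separates all 3 clones (means -1.31, -2.68 and -3.87), Cblb to Cbl sets Rop7-II apart, and Csk to Lck runs from -1.97 to -1.71 over all samples.

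The promoters of the paralogues are shown side by side because Ubash3b was called in all 3 pairs of clones and Ubash3a in none. Ubash3b has a second listed promoter (chr9:41079457-41079756), which is not shown. The sequences are chr9:41158013-41158312 (minus strand) for Ubash3b and chr17:31207816-31208115 (plus strand) for Ubash3a, with capitals for the ETS core as above.

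Ubash3b: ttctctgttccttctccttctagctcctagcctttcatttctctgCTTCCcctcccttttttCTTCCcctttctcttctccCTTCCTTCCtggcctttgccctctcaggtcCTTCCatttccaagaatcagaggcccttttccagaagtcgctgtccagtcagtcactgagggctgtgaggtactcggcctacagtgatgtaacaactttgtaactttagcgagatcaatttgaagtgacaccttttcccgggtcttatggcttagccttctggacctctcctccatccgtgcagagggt

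Ubash3a: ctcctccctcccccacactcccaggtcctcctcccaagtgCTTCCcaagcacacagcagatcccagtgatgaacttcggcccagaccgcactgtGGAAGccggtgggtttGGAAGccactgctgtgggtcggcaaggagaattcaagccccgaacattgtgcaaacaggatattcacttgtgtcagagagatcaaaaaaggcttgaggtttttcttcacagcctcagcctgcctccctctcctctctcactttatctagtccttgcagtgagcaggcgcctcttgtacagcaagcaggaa

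This promoter of Ubash3b holds 5 ETS cores, all between 205 and 135 bases before the start, all read as CTTCC on this strand, of which a pair shares 1 base. At least 5 were found in 2.06% of all promoters, and the first promoter of Ptpn22 holds 5 as well. The Ubash3a promoter holds 3, as does that of Cd5, and at least 3 were found in 16.5% of all promoters. E-boxes numbered 2 for Ubash3a and 0 in this promoter of Ubash3b, and neither held RUNX, EGR, AP-1 or SP1 letters.

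Ptpn6 encodes SHP-1, a phosphatase recruited by inhibitory receptors, and lies on chr6:124720707-124738709 (minus strand). It stood at 252, 170.0 and 176 TPM in Rop7-II T cells. In Rop7-I it stood at 159, 154 and 155 TPM, and in Rop7-III at 139.6, 151 and 137 TPM. Rop7-II replicate 1 was far above every other sample, and it is the sample in which the B-cell and myeloid markers were highest (803 and 577 TPM in sum). Their part in the level of Ptpn6 was not tested. The clones nevertheless did not overlap, with Rop7-II highest and Rop7-III lowest. With all samples the log2 fold change of Rop7-III over Rop7-II was -0.46 with a standard error of 0.12 (adjusted p = 0.0257), and it was not called. Without Rop7-II replicate 1 the difference was smaller, at -0.28, and called (adjusted p = 0.00275, with a range up to 0.125 over all alternatives). For Rop7-I over Rop7-II the value was -0.33 (adjusted p = 0.101), or -0.15 without that sample (adjusted p = 0.0514).

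Ptpn22 encodes a phosphatase of Lck and Zap70 that binds Csk and lies on chr3:103856575-103912252 (plus strand). It stood at 203, 208 and 245 TPM in Rop7-I T cells. In Rop7-II it stood at 172, 180.1 and 175 TPM, and in Rop7-III at 176, 181 and 173 TPM. All 3 Rop7-I samples were above the other 6, and Rop7-II and Rop7-III lay within the same range. The log2 fold change was 0.31 between Rop7-I and Rop7-II (95% interval 0.17 to 0.45, adjusted p = 0.00965), a call that was lost under 12 of 18 alternatives (highest adjusted p 0.0571), among them a fit without Rop7-II replicate 1 (0.0213). Between Rop7-III and Rop7-I it was -0.31 and not called (adjusted p = 0.0137). Without Rop7-I replicate 3, the highest sample, this difference was -0.22 and called (adjusted p = 0.00801, with a range up to 0.0751).

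Cblb and Cbl encode E3 ubiquitin ligases, of which Cbl-b is known to set the need for costimulation in mature T cells. Cblb (chr16:52031230-52208047, plus strand) stood at 54.4, 57.7 and 64.0 TPM in Rop7-II T cells. In Rop7-I it stood at 77.2, 82.1 and 76.7 TPM, and in Rop7-III at 80.9, 78.9 and 84.3 TPM. Every Rop7-II sample was below the other 6, while Rop7-I and Rop7-III overlapped. On the log2 scale the difference was 0.47 between Rop7-III and Rop7-II (95% interval 0.34 to 0.60, adjusted p = 5.84e-04) and 0.42 between Rop7-I and Rop7-II (0.29 to 0.55, adjusted p = 0.00160). Between Rop7-III and Rop7-I it was 0.05 (-0.08 to 0.18, adjusted p = 0.644). Without Rop7-II replicate 1 the first 2 were 0.41 (adjusted p = 9.30e-04) and 0.37 (adjusted p = 0.00282). The call between Rop7-I and Rop7-II was lost in a fit of only those clones (adjusted p = 0.0120) and with no filter on low values (adjusted p = 0.0156), the highest over all alternatives.

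Cbl (chr9:44142976-44234259, minus strand) was the more abundant ligase in every sample, at 133 to 148 TPM in Rop7-III T cells, 138 to 146 TPM in Rop7-I samples and 148 to 175 TPM in Rop7-II. Its log2 fold change of Rop7-III over Rop7-II was -0.21 (95% interval -0.35 to -0.07, adjusted p = 0.0395), opposite in sign to that of Cblb and not called. The log2 ratio of Cblb to Cbl was -1.45 in each of the 3 Rop7-II samples. In Rop7-I it was -0.92, -0.74 and -0.93, and in Rop7-III -0.72, -0.76 and -0.81. The ratio of Rop7-II was thus the lowest and the least variable, with differences of 0.68 from Rop7-III and 0.59 from Rop7-I (exact p = 0.1, the smallest possible, adjusted 0.15). The former was 0.69 with Rop7-II replicate 1 left out. Rop7-III and Rop7-I overlapped, with a difference of 0.10 (exact permutation p = 0.3, adjusted 0.327).

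Csk, the kinase that phosphorylates the inhibitory tyrosine of Lck, and Pag1, the membrane adaptor that binds Csk, differed little between the clones. Csk (chr9:57626646-57653631, minus strand) was the most abundant regulator in every clone. It stood at 272, 279 and 277 TPM in Rop7-III, at 291, 291 and 281 TPM in Rop7-I and at 316, 302 and 299 TPM in Rop7-II T cells. The clones did not overlap, in the order opposite to that of Cd5, but the whole span from the lowest to the highest sample was 272 to 316 TPM. The log2 fold change of Rop7-III over Rop7-II was -0.15 (95% interval -0.21 to -0.08, adjusted p = 0.00741). This call was lost under 14 of 18 alternatives (adjusted p up to 0.0331), among them each fit that left out a sample, such as that without Rop7-II replicate 1 (-0.12, adjusted p = 0.0189). The other pairs differed by -0.06 (adjusted p = 0.233) and -0.09 (adjusted p = 0.0774).

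Pag1 (chr3:9687479-9833684, minus strand) stood at 49.5 to 51.8 TPM in Rop7-III T cells, 53.6 to 55.0 TPM in Rop7-I samples and 51.0 to 55.2 TPM in Rop7-II. No pair was called (adjusted p from 0.161 to 0.598), and its log2 fold changes lay between -0.09 and 0.03. The intervals of the 3 differences reached from -0.18 to 0.12. The log2 ratio of Csk to Lck, the kinase on which it acts, was -1.93 ± 0.04 (SD, n = 3) in Rop7-III T cells, -1.78 ± 0.07 in Rop7-I samples and -1.88 ± 0.07 in Rop7-II. Rop7-III lay below Rop7-I without overlap (difference -0.14, exact permutation p = 0.1, adjusted 0.15), and Rop7-II overlapped both.

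**Figure D4:**
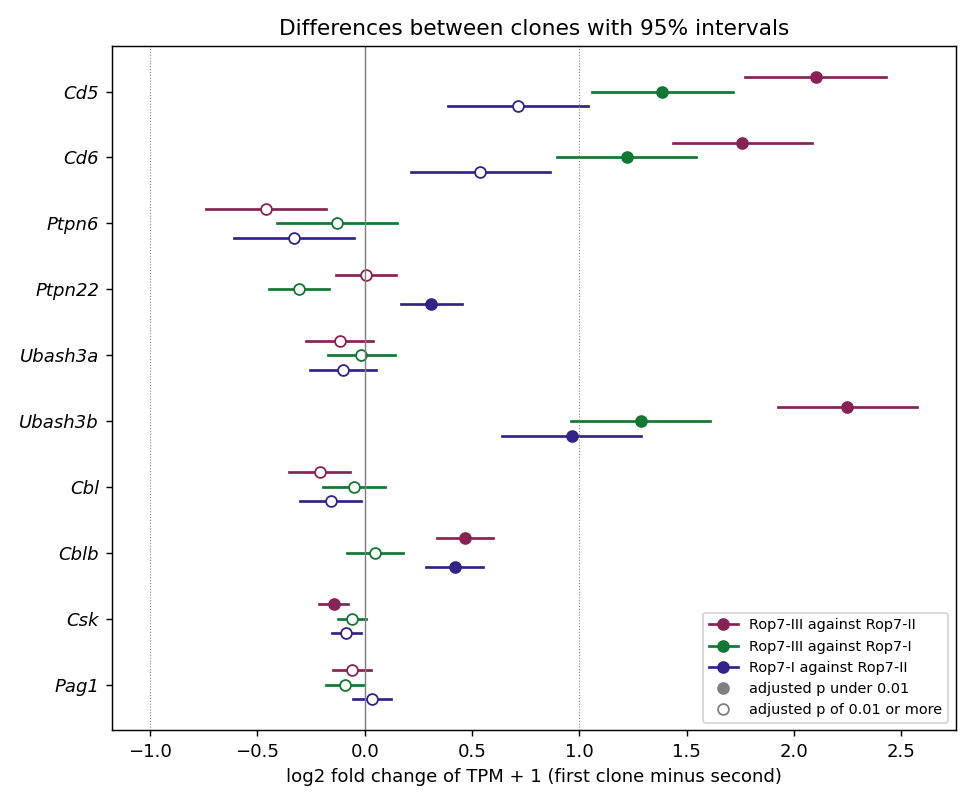
Log2 fold change of TPM + 1 (horizontal axis, first clone minus second) of each regulator in the 3 pairs of clones, as points with 95% intervals, filled where the adjusted p was under 0.01, with dotted lines at 2-fold. The intervals of Cd5, Cd6 and Ubash3b for Rop7-III against Rop7-II lie beyond 2-fold, and those of Ubash3a and Pag1 stay close to 0 in every pair.

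Counted together, 4 of the 10 regulators (Cd5, Cd6, Ubash3b and Cblb) were higher in Rop7-III T cells than in Rop7-II, where 6.39% of all 12115 tested genes were, and 1 (Csk) was lower, where 5.89% were. At least 2-fold differences were found in 3 of them (1.70% of tested genes), and the samples of these clones did not overlap in 7 (40.7%). Between Rop7-III and Rop7-I, 3 were higher (2.58%) and 0 lower in limma (2.28%). At an unadjusted p under 0.05, 3 were higher and 2 lower, against 1781 and 1614 of all 12115 tested genes. The 3 called genes were Cd5, Cd6 and Ubash3b, all past 2-fold (1.06%), and 7 of 10 regulators did not overlap (38.2%). Between Rop7-I and Rop7-II, 3 were higher (3.67%), namely Ubash3b, Cblb and Ptpn22, and 0 were lower in limma (3.85%). At an unadjusted p under 0.05, 5 were higher and 3 lower, against 1806 and 2078 of all 12115 tested genes. In that pair 0 were called and past 2-fold (0.949%), the largest log2 fold change being 0.96, and 8 did not overlap (35%). The pairs share samples, so that these counts are not independent of each other.

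Without a filter on low values the adjusted p for Rop7-III against Rop7-I was 0.0116 for Cd5, 0.0168 for Cd6 and 0.0125 for Ubash3b, each the highest over all alternatives, and the count for that pair was 0. Without Rop7-II replicate 1 the counts were 5 between Rop7-III and Rop7-II, 3 between Rop7-III and Rop7-I and 2 between Rop7-I and Rop7-II.

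In the F test across the 3 clones, 5 of the 10 were called (14.1% of tested genes), with Ubash3b at rank 77 of 12115 (adjusted p = 3.30e-05), Cd5 at rank 104, Cd6 at rank 174, Cblb at rank 479 and Ptpn22 at rank 1498. All 3 clones separated in the order Rop7-III, Rop7-I, Rop7-II in 3 regulators, Cd5, Cd6 and Ubash3b, as they did in 2.63% of tested genes. By the size of the log2 fold change of Rop7-III over Rop7-II, Ubash3b was number 39, Cd5 number 51 and Cd6 number 93 of 12115 genes, while Cblb was number 1525 and Csk number 5634. The median log2 fold change of the 10 was -0.03 in this pair, against -0.02 over all tested genes, and the median size without regard to sign was 0.33 against 0.13. Between Rop7-III and Rop7-I the medians were -0.03 and -0.0035, with sizes of 0.11 and 0.10. Between Rop7-I and Rop7-II they were 0.17 and -0.01, with sizes of 0.32 and 0.12.

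The mean level was highest in Rop7-III and lowest in Rop7-II for 4 regulators (Cd5, Cd6, Ubash3b and Cblb). It was highest in Rop7-II and lowest in Rop7-III for 4 others (Ptpn6, Ubash3a, Cbl and Csk). In 9 of the 10 the coefficient of variation was largest in Rop7-II, Ptpn22 being the exception, for which it was largest in Rop7-I.

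Levels within a clone ran from Csk at the top to Ubash3b at the bottom in all 3 clones. In Rop7-III T cells Csk (276 ± 3.51 TPM, SD, n = 3) was followed by Cd6 (202 ± 13.8), Cd5 (178 ± 3.20) and Ptpn22 (176 ± 4.05), of which the last 2 overlapped. In Rop7-I T cells Csk (288 ± 5.54 TPM) was followed by Ptpn22 (219 ± 23.0), Ptpn6 (156 ± 2.62) and Cbl (143 ± 4.75) without overlap, while Cblb overlapped both Cd6 and Ubash3a. In Rop7-II T cells Ptpn22 overlapped both Ptpn6 and Cbl behind Csk (306 ± 8.96 TPM). There the mean of Cd5 (41.4 ± 10.2) came last but for Ubash3b (5.78 ± 1.69), though samples of Cd5 and Pag1 overlapped. By mean level Cd5 was therefore number 3 of the 10 in Rop7-III, number 8 in Rop7-I and number 9 in Rop7-II.

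Summed over the 10 genes the level was 1352 ± 16.8 TPM (SD, n = 3) in Rop7-III T cells, 1181 ± 7.07 TPM in Rop7-I samples and 1143 ± 21.1 TPM in Rop7-II. The receptors Cd5 and Cd6 made up 28.1 ± 0.978% of this sum in Rop7-III T cells, 13.0 ± 1.10% in Rop7-I samples and 8.90 ± 2.34% in Rop7-II. The summed level of the 4 phosphatases was 426 ± 9.46, 464 ± 23.2 and 464 ± 43.2 TPM in the same order of clones, and that of the ligases was 220 ± 10.9, 222 ± 1.74 and 219 ± 18.4 TPM. The phosphatase sums of Rop7-III lay below those of Rop7-I without overlap and overlapped those of Rop7-II, and the ligase sums of all 3 clones overlapped.

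Of the 9488 other tested genes with a mean of at least 5 TPM, the 5 most like Cd5 over the 9 samples were Itga9, Ptgfrn, Phldb3, Igfbp4 and Ank. Likeness was the root-mean-square difference of log2(TPM + 1) after centring each gene on its mean, and it was 0.24 for Itga9 and 0.31 for Ank. Cd6 was closer to Cd5 than any of them, at 0.16, and Ubash3b was about as close as Ank, at 0.31. Cblb was at 0.73 and the other 6 regulators between 0.92 and 1.09. Outside the regulators, the 5 genes most like Ubash3b were Ptgfrn (0.20), Ccl5 (0.28), Itga9 (0.34), Rpgrip1 (0.35) and Ltk (0.36). Cd5 (0.31) was closer to Ubash3b than all of these but Ptgfrn and Ccl5, and Cd6 (0.35) was closer than Ltk. Ptgfrn, for example, had a mean of 11.3 ± 1.33 TPM (± SD, n = 3) in Rop7-III T cells, 3.69 ± 0.413 TPM in Rop7-I samples and 2.09 ± 0.416 TPM in Rop7-II. Ccl5, a chemokine of memory and effector CD8 T cells, stood at 28.8 ± 2.12, 7.74 ± 1.13 and 4.14 ± 2.12 TPM in the same order. It belongs to a list of 7 markers of memory-like CD8 T cells, which summed to 139 to 152 TPM in Rop7-III T cells, 108 to 114 TPM in Rop7-I samples and 90.7 to 102 TPM in Rop7-II. Il2rb was the most abundant of them, and 1 of the 7, Tbx21, was at 0 in Rop7-II replicate 2. Of the 6 that were tested, 3 were higher in Rop7-III T cells than in Rop7-II, all at least 2-fold like Cd5, Cd6 and Ubash3b, and 0 were lower (median 1.23), against 6.39% and 5.89% of all tested genes. Among these 3 were Ccl5 (2.61, adjusted p = 8.99e-05) and Eomes (1.24, adjusted p = 0.00262). The order of the sums was not that of each gene: Eomes stood at 12.35 to 17.46 TPM in Rop7-I and 5.30 to 7.62 TPM in Rop7-III, and Il2rb differed by -0.02 between Rop7-I and Rop7-II (adjusted p = 0.828). The part of such cells in the levels of the regulators was not tested.

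Ubash3b, Cbl and Csk all lie on chromosome 9, with the starts of Ubash3b and Cbl 3132216 bases apart. Only 8 tested genes start within 1 Mb of Ubash3b, and 1 of them, Gramd1b, was called between Rop7-III and Rop7-II, at 0.27 (adjusted p = 0.00787). Over all tested genes 6.39% were higher and 5.89% lower in that pair. Next to Cbl, Mcam starts at -8318 bases from the start of Cbl and stood at 6.15 TPM in Rop7-III against 2.41 TPM in Rop7-I T cells (log2 fold change 1.07, adjusted p = 5.64e-04). Near Ubash3a, whose level was alike in the clones, Notch3 was lower in Rop7-III T cells than in Rop7-II by more than 2-fold (1.117 against 7.503 TPM, log2 fold change -2.004, adjusted p = 1.95e-05). The same holds for Eno2 (-1.24, adjusted p = 6.22e-04) and Lrrc23 (-1.15, adjusted p = 6.98e-04) near Ptpn6, while Ppm1j near Ptpn22 was higher (1.33, adjusted p = 0.00359). Near Pag1, Zfp704 was higher (1.06, adjusted p = 5.50e-04) and Tpd52 lower (-1.05, adjusted p = 0.00303) in Rop7-III than in Rop7-I T cells.

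Transcripts of the proximal pathway on which these regulators act varied less, with a median size of the log2 fold change of 0.06 against 0.33 for the regulators in Rop7-III over Rop7-II. The list of these targets held 17 genes, mostly for kinases, CD3 chains, coreceptor chains and adaptors. Of the 17, 2 were lower in Rop7-III T cells than in Rop7-II, where 5.89% of all tested genes were, and the median log2 fold change was -0.04. The lower genes were Cd8a (-0.39, adjusted p = 2.05e-04) and Lat (-0.20, adjusted p = 0.00294). Fyn alone was called between Rop7-III and Rop7-I, at 0.21 (adjusted p = 0.00822). Between Rop7-I and Rop7-II, Cd8a (-0.22), Lat (-0.19) and Lck (-0.19) were lower (adjusted p from 0.00514 to 0.00685). None of the 17 differed 2-fold with a call in any pair in limma.

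Of 11 binding partners of the regulators, 3 were higher and 1 was lower in Rop7-III T cells than in Rop7-II (median -0.02), against 6.39% and 5.89% of all tested genes. Pik3r1, the regulatory subunit of PI3-kinase, was higher by 0.39 (adjusted p = 3.67e-04), Themis, a partner of SHP-1, by 0.22 (adjusted p = 0.00197) and Sh3kbp1, which binds Cbl proteins, by 0.17 (adjusted p = 0.00342). Slc9a3r1, which links Pag1 to ezrin, was lower (-0.27, adjusted p = 0.00132). Between Rop7-I and Rop7-II, Pik3r1 (0.34, adjusted p = 0.00119) and Slc9a3r1 (-0.41, adjusted p = 1.99e-04) were called in the same directions. In limma 0 of the 11 were called between Rop7-III and Rop7-I, where 2.58% of all tested genes were higher and 2.28% lower. At an unadjusted p under 0.05, 3 of the 11 were higher and 0 lower, against 1781 and 1614 of all 12115 tested genes.

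A list of 32 other negative regulators of T-cell activation had 2 genes higher and 2 lower between Rop7-III and Rop7-II, where 6.39% and 5.89% of all tested genes were, with a median of 0.03. Dok2, an adaptor that limits Ras signalling, had a mean of 64.0 ± 1.44 TPM (± SD, n = 3) in Rop7-III T cells, 52.9 ± 2.75 TPM in Rop7-I samples and 192 ± 12.5 TPM in Rop7-II. It was thus highest in the clone with the lowest Cd5, and its log2 fold change was -1.57 between Rop7-III and Rop7-II and -1.84 between Rop7-I and Rop7-II (adjusted p = 4.22e-07 and 1.22e-07). Sla, an adaptor that works with Cbl to lower TCR levels, stood at 66.6 ± 4.19, 54.2 ± 1.16 and 39.4 ± 1.41 TPM in Rop7-III, Rop7-I and Rop7-II, and was called in all 3 pairs (adjusted p up to 0.00667). Lair1, an inhibitory collagen receptor, was higher in Rop7-III (0.66, adjusted p = 0.00307) and in Rop7-I (0.74, adjusted p = 0.00256) than in Rop7-II T cells. Sit1, an adaptor that recruits SHP-2, was lower in Rop7-III T cells than in Rop7-II (-0.43, adjusted p = 0.00837).

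**Figure D5:**
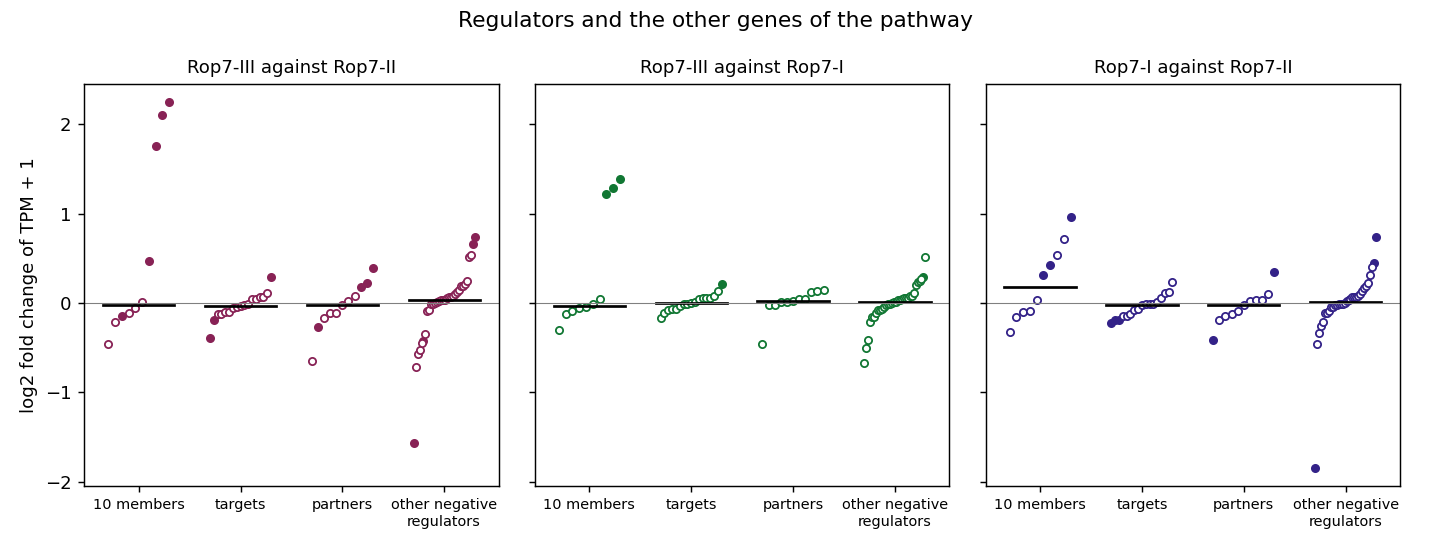
Log2 fold change of TPM + 1 (vertical axis) of the 10 regulators, 17 targets, 11 partners and 32 other negative regulators in each pair of clones, 1 point per gene, filled where the adjusted p was under 0.01, with the median of each list as a black line. The medians lie between -0.04 and 0.17, with Cd5, Cd6 and Ubash3b far above that of the regulators in both comparisons of Rop7-III, and Dok2 far below in those against Rop7-II.

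Nr4a1, an immediate early gene whose reporter serves as a gauge of recent TCR signals, was at a low level throughout. In the study this reporter, read as GFP in mature T cells, was highest in Rop7-III and lowest in Rop7-II among the clones. The values here are RNA of cells kept overnight with IL-2, which is not the same measure. The mean of Nr4a1 was 3.41 ± 1.117 TPM (± SD, n = 3) in Rop7-III T cells, 4.07 ± 1.16 TPM in Rop7-I samples and 4.49 ± 4.52 TPM in Rop7-II. The highest value, 9.70 TPM, was that of Rop7-II replicate 1, the sample with the most B-cell and myeloid markers (803 and 577 TPM), and their part in it was not tested. The other Rop7-II samples stood at 1.59 and 2.19 TPM, and the clones overlapped. The log2 fold change of Rop7-III over Rop7-II was -0.04 (standard error 0.47, adjusted p = 0.957), with a 95% interval of -1.09 to 1.01 that takes in 2-fold differences in both directions. Its sign rests on single samples: without Rop7-II replicate 1, an alternative chosen after seeing the data, it was 0.59 (adjusted p = 0.121), again not called. The standard errors of the regulators were 0.03 to 0.15.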

How the data were processed

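Polyadenylated RNA (200 ng per sample) was sequenced without strand information. The authors counted reads per gene with RSEM 1.2.11 on mm10 RefSeq genes and deposited TPM values; they tested counts with DESeq2 1.8.1, which does not apply to TPM. TPM does not hold the sequencing depth, so counting error has no interval here. Here genes with a maximum over 1 TPM were kept (12115 of 24060). All 9 samples entered 1 fit of log2(TPM + 1) by clone in limma 3.58.1 (R 4.3.3), with the variance modelled along the mean level, no covariates and no pairing. P-values were Benjamini-Hochberg adjusted over all tested genes of each pair, or of the F test, and are from limma unless another test is named. Ratios were compared by exact permutation of samples, two-sided. The fit was tested on simulated data. Standard errors and intervals are moderated by limma.

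Positions were matched by symbol or unique synonym in RefSeq on GRCm38.p6 (the mm10 build) for 12046 tested genes, and overlaps and strands were taken from GENCODE M21. Genes named were the 10 regulators, up to 5 called genes with the smallest adjusted p per pathway list and pair (1 of them is not reported here), the 5 genes most like Cd5 and Ubash3b, neighbours within 1 Mb called and at least 2-fold different, Nr4a1 and the most abundant marker of each cell type. Rsph1, Gramd1b, Tbx21, Eomes and Cd40lg were named after their values were seen. The regulators and lists were chosen with earlier results of these data known. Other settings tried were 0.1 or 0.5 TPM added, no filter or at least 1 TPM in every sample, a common median, quantile normalization, no trend, only the clones compared, a replicate block, each sample left out, an adjusted p under 0.05 and a 2-fold minimum.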

Additional observations from a re-analysis of the deposited data

How the results depend on the processing

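Over the 18 alternatives for each of the 30 log2 fold changes (10 regulators, 3 pairs), 495 of 540 values kept their direction and their side of the limit, 34 lost a call, 7 gained one and 4 changed sign. The sign changed only for Ptpn22 between Rop7-III and Rop7-II, which was -0.0077 when Rop7-II replicate 1 was left out (range -0.012 to 0.0233 when each sample was left out in turn, the lowest without replicate 2 of Rop7-III), and for Ubash3a between Rop7-III and Rop7-I, at 0.0057 when Rop7-I replicate 2 was left out (range -0.0523 to 0.0207, the highest without replicate 2 of Rop7-III). None of these was called. The cause was not tested. For Nr4a1 each sample was left out in turn, which was chosen after seeing the data. Its log2 fold change of Rop7-III over Rop7-II then ranged from -0.43 without Rop7-II replicate 2 to 0.59 without Rop7-II replicate 1, and turned positive as well without Rop7-III replicate 1 or 3. That of Rop7-I over Rop7-II ranged from -0.23 to 0.79 with the same samples left out, against 0.16 with all, and turned negative as well without Rop7-II replicate 3. None was called.

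The number of regulators called, 5, 3 and 3 in the pairs and 5 in the F test, moved most as follows. At an adjusted p under 0.05 it was 7 between Rop7-III and Rop7-II, 4 between Rop7-III and Rop7-I, 5 between Rop7-I and Rop7-II and 7 in the F test. With a 2-fold minimum it was 3 between Rop7-III and Rop7-II and 0 between Rop7-I and Rop7-II. Dropping the filter on low values adds genes both to the adjustment and to the modelling of the variance, whose separate effects were not tested. The number called was then 0 between Rop7-III and Rop7-I, 0 between Rop7-I and Rop7-II and 3 in the F test. In Rop7-I against Rop7-II it was also 0 in a fit of only those clones, and 1 to 4 when each sample was left out in turn, the lowest without Rop7-I replicate 2 and the highest without Rop7-II replicate 2. Leaving out 1 sample leaves 2 in its clone, with the spread shared over all clones.

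Pearson's r was taken across genes between the deviations of samples from their clone means. For samples with the same replicate number it was -0.46 to 0.19, and over 0.1 in 2 of 9 pairs. For samples with different numbers it ran from -0.195 to 0.395. The check thus showed no pairing by number, but with 3 samples per clone it cannot show that there is none. With the number as a replicate block, 4, 3 and 2 regulators were called in the 3 pairs against 5, 3 and 3, and 4 in the F test. TPM gives no depth, so that noise from few reads, most likely for Ubash3b in Rop7-II, could not be separated from spread between samples.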
